A study of Homo sapiens with 6 samples.

Results

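The miR-378 family was described in small RNA libraries of extracellular vesicles (EVs) from tumor spheroids. Its members were the rows of the miRNA count table named hsa-miR-378a-3p, hsa-miR-378c, hsa-miR-378d and hsa-miR-378i (the human prefix is left off below), and all 4 were found among the 471 rows. The spheroids were of Cal27, an established human oral squamous cell carcinoma line, grown in growth factor reduced Matrigel at 3 mg/mL (soft matrix, EV_soft) or 12 mg/mL (stiff matrix, EV_stiff). Small EVs were isolated from the medium of day 14 by insulator-based dielectrophoresis, and each group had 3 libraries labelled as biological replicates. Both groups received medium with EV-depleted fetal bovine serum, and neither carried a gene edit or a drug. The stiff gel also contained more Matrigel protein than the soft gel, so stiffness and gel density cannot be told apart in this design.

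MicroRNAs are short RNAs that guide silencing proteins to messenger RNAs, and bases 2 to 8 from the 5′ end, the seed, make most of the contact with the target. The miR-378a hairpin lies within PPARGC1B, the gene of the coactivator PGC-1β, which drives mitochondrial and oxidative genes, and miR-378a is known as a regulator of mitochondrial and lipid metabolism. It is abundant in muscle, heart and brown fat, and its levels are altered in many carcinomas. The other genes of the family lie elsewhere in the genome and give mature miRNAs with nearly the same 5′ end.

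The sequences that decide how far reads of the family can be told apart are printed 5′ to 3′ from RefSeq on GRCh38.p14, with the seed in capitals. All 6 share the first 5 bases, and 5 of them share the whole seed.
miR-378a-3p: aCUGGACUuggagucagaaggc
miR-378c: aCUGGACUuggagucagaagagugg
miR-378i: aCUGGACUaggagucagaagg
miR-378f: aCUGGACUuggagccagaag
miR-378h: aCUGGACUuggugucagaugg
miR-378g: aCUGGGCUuggagucagaag

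Counted from 1 at the 5′ end, with the base of miR-378a-3p first, miR-378c first departs from miR-378a-3p at G21A. The 2 sequences are identical over 20 bases, so a read that ends at or before base 20 belongs to either name. The libraries were cut to inserts of 16 to 27 bases, a range that takes in such short reads. The change in miR-378i is U9A, the first base after the seed. In miR-378f it is U14C, and in miR-378h A12U and A19U. The change in miR-378g is A6G, inside the seed, which then reads CUGGGCU in place of CUGGACU. Of the 479 names in the table, 420 matched a RefSeq mature sequence, and 6 of those had the seed CUGGACU. All 6 were miR-378 names, the sixth being miR-378b. No mature sequence of miR-378d or miR-378e was used here, so both are left out of every comparison of sequences.

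The hairpins of the most abundant member and of miR-378c are printed with the mature products in capitals, because both arms of miR-378a and the hairpin name of miR-378c have rows of their own.
MIR378A: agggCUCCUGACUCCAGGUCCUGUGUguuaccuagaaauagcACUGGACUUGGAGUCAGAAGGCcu
MIR378C: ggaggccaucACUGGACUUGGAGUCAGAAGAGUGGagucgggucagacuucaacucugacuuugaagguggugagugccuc

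The miR-378a hairpin is at chr5:149732825-149732890 on the plus strand of GRCh38, in an intron of PPARGC1B and on the same strand as that gene in GENCODE 44. Its 3p product takes 149732867 to 149732888. The miR-378c hairpin is at chr10:130962588-130962668 on the minus strand, where no other gene is annotated. The miR-378i hairpin is at chr22:41923222-41923297 on the minus strand, in an exon of TNFRSF13C, the gene of a B cell receptor. One of the 2 annotated miR-378d genes, MIR378D1, is at chr4:5923275-5923328 on the minus strand, in an intron of C4orf50. The hairpin of miR-378e, at chr5:170028488-170028566 in an intron of DOCK2, holds the first 17 bases of miR-378a-3p.

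The miRNA counts summed to between 39211 and 66345 per EV_soft library and between 28688 and 30685 per EV_stiff library, so every EV_soft library was deeper. Levels are given as CPM, reads scaled to a common library total after TMM normalization, which sets each library against the bulk of its miRNAs. A count of 3, the most that a count of 0 allows, was worth between 44.8 and 108 CPM. This limit and the exact intervals of shares and ratios below cover counting error only, since reads copied by PCR are not separate molecules. The intervals of log2 fold changes come from model fits, which also take in variation between libraries. Of 5 miRNAs of squamous epithelium, all had reads, and their summed level was between 53176 and 64051 CPM in EV_soft and between 49229 and 50390 CPM in EV_stiff. These members did not all go the same way. The mean level of miR-200c-3p was 27027 ± 1774 CPM (SD, n = 3) in EV_soft and 12586 ± 1531 CPM (SD, n = 3) in EV_stiff. The means of miR-141-3p and miR-31-5p were also lower in EV_stiff. That of miR-205-5p was higher, at 29760 ± 3540 CPM (SD, n = 3) in EV_soft and 34300 ± 1199 CPM (SD, n = 3) in EV_stiff, as was that of miR-203a-3p. Of 6 miRNAs of striated muscle, where miR-378a is abundant, 3 were rows with reads, together between 179 and 1011 CPM in EV_soft and between 467 and 541 CPM in EV_stiff, and 109 of their 113 reads were of miR-1-3p. For blood cells 3 of 5 and for stroma 3 of 4 miRNAs had reads, with 193 and 18 reads in all libraries. Of 2 miRNAs of liver, miR-885-5p had no row. The other, miR-122-5p, had between 2762 and 4339 CPM in EV_soft and between 6462 and 7512 CPM in EV_stiff. The part of such sources in the family's level was not tested.

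miR-378a-3p was one of the most abundant miRNAs of these EVs, and its level barely varied. It ranked 7 or 8 from the top in every library and held between 3.48% and 3.95% of the miRNA counts. The raw reads of miR-378a-3p numbered 1598, 1384 and 2437 in EV_soft and 1211, 1071 and 1091 in EV_stiff. All 3 EV_soft libraries had more reads than any EV_stiff library, as did their totals. After normalization the levels were 35113, 34119 and 36380 CPM in EV_soft and 40336, 38493 and 39330 CPM in EV_stiff. The order of the groups thus turned around, and the CPM values did not overlap.

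The mean level of miR-378a-3p was 35204 ± 1133 CPM (SD, n = 3) in EV_soft and 39386 ± 922 CPM (SD, n = 3) in EV_stiff. The log2 fold change, EV_stiff over EV_soft, was 0.16 with a standard error of 0.08 and an adjusted p of 0.168 in the quasi-likelihood fit of edgeR over 105 miRNAs. Its 95% interval ran from -0.02 to 0.35, or from 0.984-fold to 1.27-fold. The difference therefore did not pass the test, while a rise of up to 1.27-fold lay within the interval. Calls needed a log2 fold change beyond 0.58 in either direction with an adjusted p of 0.05 or less, and 18.1% of the tested miRNAs met both, 10.5% higher and 7.62% lower in EV_stiff. These were 11 higher and 8 lower, a split that became 8 and 11 with library size in place of TMM. CPM without overlap between the groups was more common, at 47.6% of those tested in either direction and 22.9% higher in EV_stiff.

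**Figure D1:**
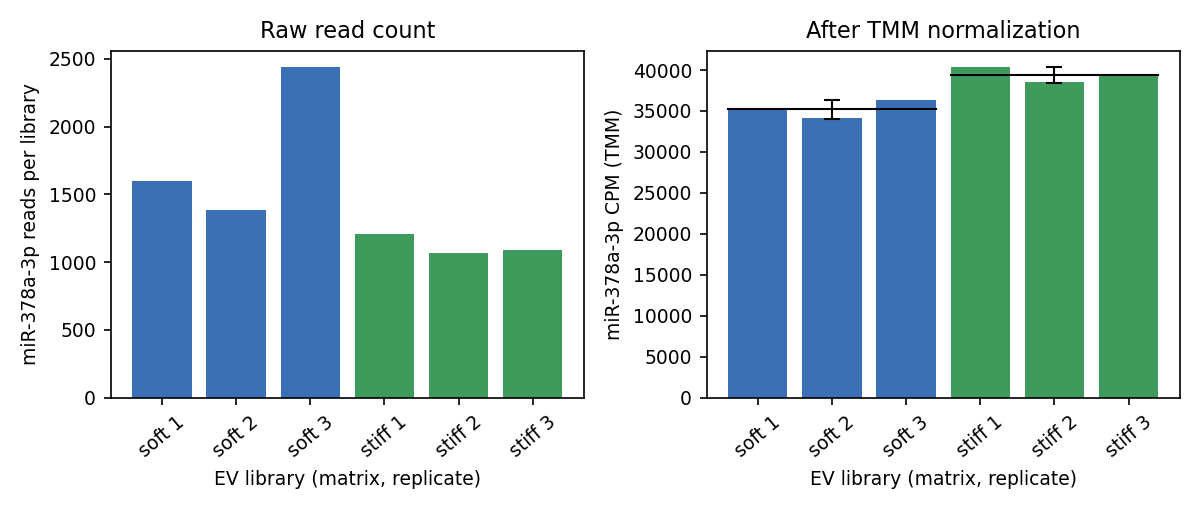
Raw reads (left) and TMM-normalized CPM (right) of miR-378a-3p in the 3 EV_soft (blue) and 3 EV_stiff (green) libraries, with group means as lines and SD as error bars on the right. The raw counts are higher in every EV_soft library, from 1384 to 2437, and the CPM are higher in every EV_stiff library, from 38493 to 40336.

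The direction of this small difference was the same under TMM, library size, RLE and upper quartile scaling. Whether its 95% interval held 0 depended on the setting. The interval held 0 with TMM and library size, but ran from 0.04 to 0.38 with RLE and from 0.05 to 0.39 with upper quartile factors. With DESeq2 it ran from 0.02 to 0.40. The adjusted p stayed above 0.05 in all of these. With library sizes set equal, which compares raw reads and keeps the difference in depth, the log2 fold change of miR-378a-3p was -0.68 (standard error 0.29) with an edgeR adjusted p of 0.0356 and met the thresholds for a call. That scaling moved the median of all tested miRNAs by -0.84 on the log2 scale, more than the value of miR-378a-3p itself. As a plain share of the miRNA counts, the 4 members together were 3.62% ± 0.0904 (SD, n = 3) in EV_soft and 3.83% ± 0.149 (SD, n = 3) in EV_stiff. These shares overlapped, since replicate 3 of EV_soft stood at 3.72% and replicate 3 of EV_stiff at 3.71% (exact two-sided permutation p = 0.2, with 0.1 the smallest possible). The exact 95% intervals of the 6 shares, by the Clopper-Pearson method, reached from 3.38% at the lowest to 4.22% at the highest.

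**Figure D2:**
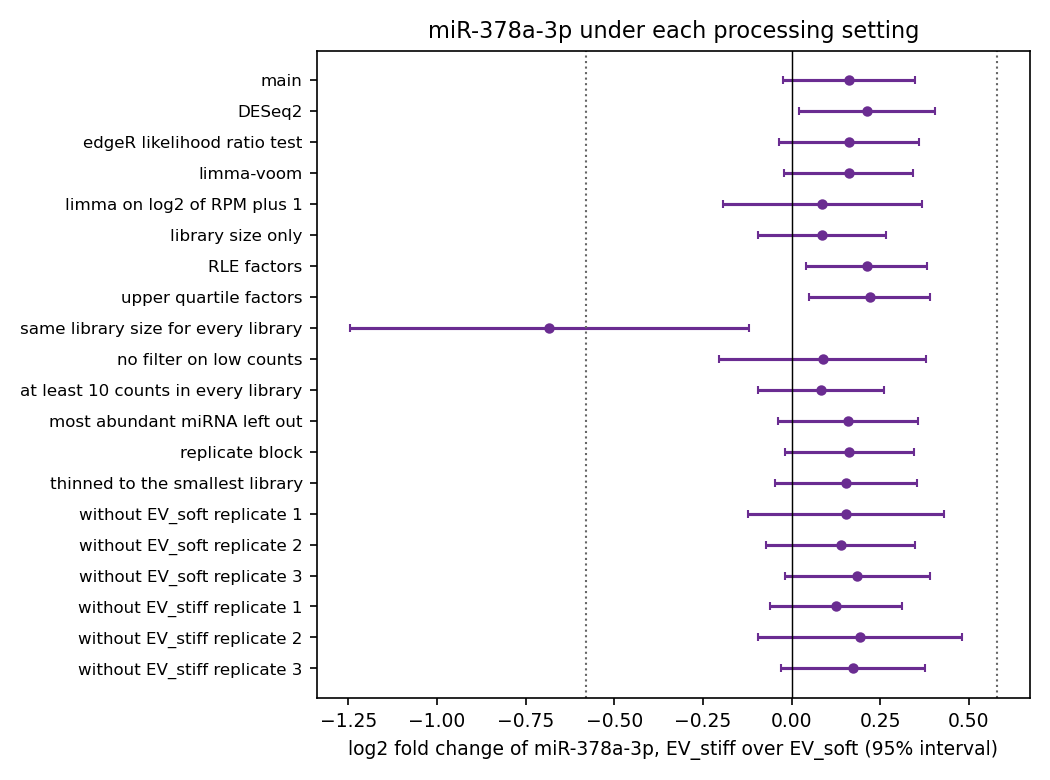
Log2 fold change of miR-378a-3p, EV_stiff over EV_soft, with its 95% interval, for the reported test (main) and for 19 other settings, with dotted lines at the threshold of 0.58 in both directions. The value lies between 0.08 and 0.22 in 18 settings and at -0.68 with library sizes set equal.

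Few miRNAs were as even across the 6 libraries. The SD of the TMM log2 CPM of miR-378a-3p was 0.096, against a median of 0.39 over the 105 miRNAs tested, and 1 of these had a lower SD. Among the 20 most abundant miRNAs its SD was the lowest. When only library size was used, the SD of its log2 RPM was 0.064, and it ranked first of the 105. Within groups the SD was 0.040, against a median of 0.25. This was a description of 6 libraries, and abundant miRNAs have less counting error than rare ones. miR-27a-3p, the next miRNA above it in mean CPM, had a log2 fold change of -0.18 (adjusted p = 0.361), and miR-24-3p, the next below, 0.26 (adjusted p = 0.0647, both by edgeR). None of these 3 miRNAs was called. With 18.1% of all tested miRNAs called in either direction, 3 are too few to set them apart.

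**Figure D3:**
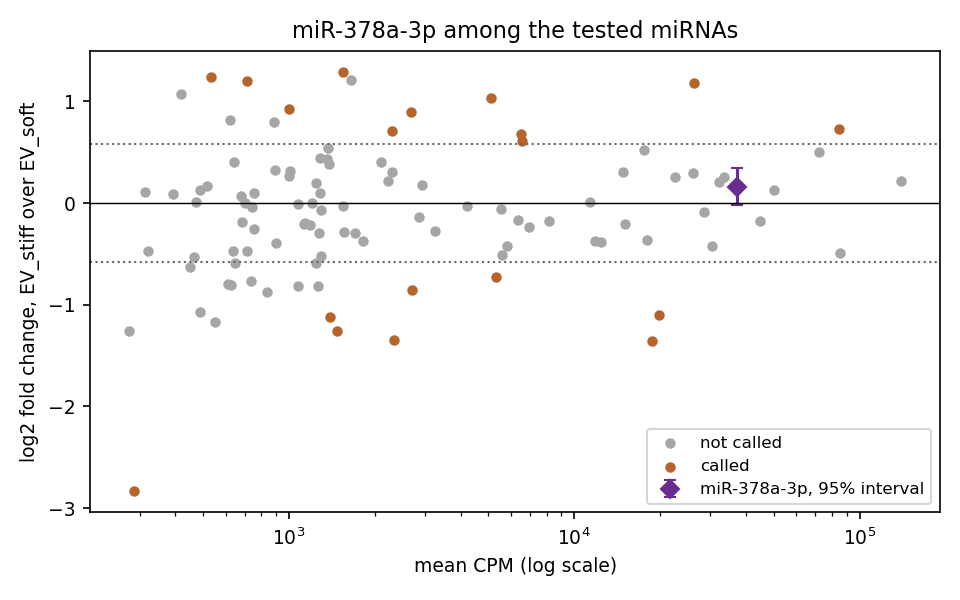
Log2 fold change, EV_stiff over EV_soft, against mean CPM on a log axis for the 105 tested miRNAs, with called miRNAs in brown, the others in grey and miR-378a-3p as a diamond with its 95% interval. miR-378a-3p sits far to the right at 0.16, between the dotted lines at the 0.58 threshold.

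The other arm of the same hairpin, miR-378a-5p, had almost no reads. Its count was 2 in replicate 3 of EV_soft and 0 in the other 5 libraries, against 8792 reads of miR-378a-3p in all. Set against 3 counts per library, miR-378a-3p was at least 357-fold higher than miR-378a-5p in replicate 2 of EV_stiff, the lowest bound among the 5 libraries at 0, and at least 533-fold higher in replicate 1 of EV_soft, the highest bound. In replicate 3 of EV_soft the 2 reads of the 5p arm stood beside 2437 of the 3p arm. The libraries of both groups therefore held the 3p product of this hairpin nearly alone, and the arm ratio could not be compared between soft and stiff at this depth.

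The 3 relatives among the members were rare. Together miR-378c, miR-378d and miR-378i had 28, 24 and 31 reads in the EV_soft libraries and 14, 13 and 10 in the EV_stiff libraries. Between 98.3% and 99.1% of the family's reads in each library carried the name miR-378a-3p. Accordingly only miR-378a-3p passed the filter on low counts, and the 3 relatives were not tested in the reported fit. With the reads of all 4 members summed to 1 row, which does not depend on how reads were divided among them, the log2 fold change was 0.16 (standard error 0.08, 95% interval -0.03 to 0.34, edgeR adjusted p = 0.183). The summed family thus had the same fold change as miR-378a-3p alone, and was not called.

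**Figure D4:**
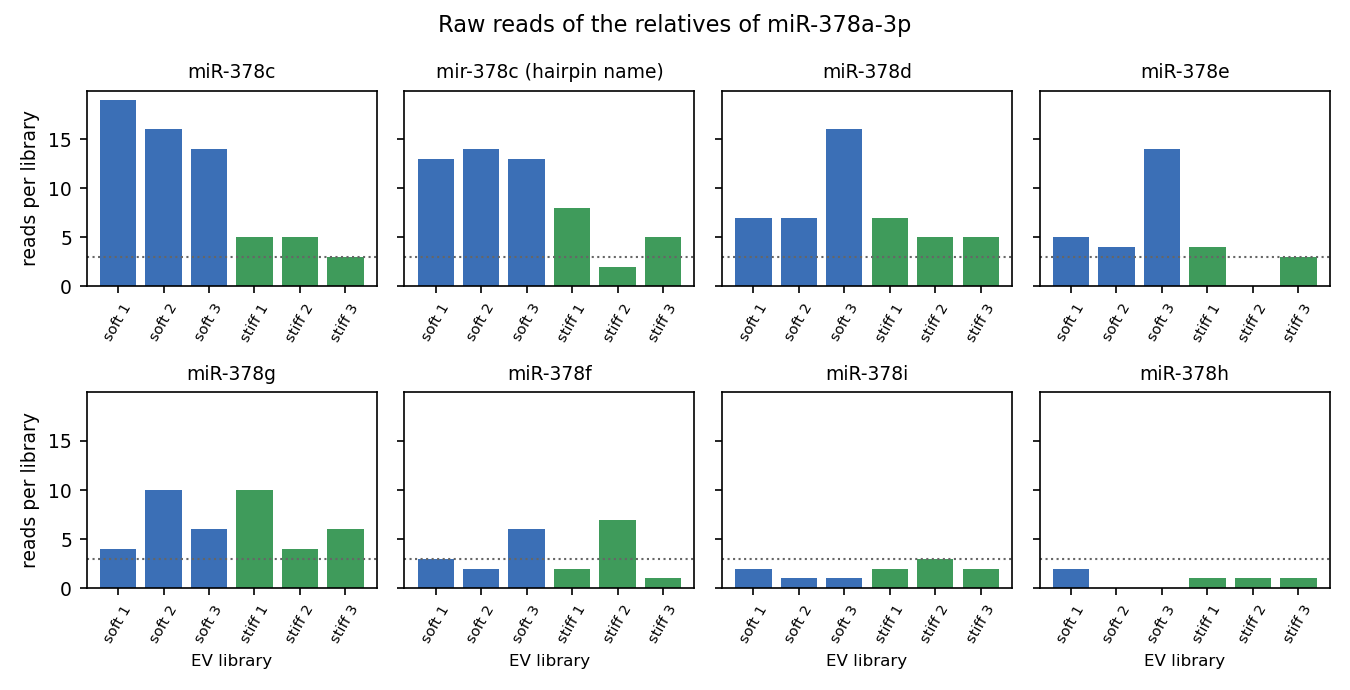
Raw reads per library of the miR-378 rows other than the arms of miR-378a and miR-378b, in EV_soft (blue) and EV_stiff (green) libraries, with a dotted line at 3 counts. The mature miR-378c row has 14 to 19 reads in EV_soft and 3 to 5 in EV_stiff, and the miR-378i and miR-378h rows have no more than 3 reads in any library.

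miR-378c, which shares its first 20 bases with miR-378a-3p, was the member with the most reads after miR-378a-3p, and its ratio to miR-378a-3p was lower in every EV_stiff library than in any EV_soft library. Its reads numbered 19, 16 and 14 in EV_soft and 5, 5 and 3 in EV_stiff. In CPM these were 417, 394 and 209 against 167, 180 and 108, without overlap, which 24.8% of the tested miRNAs also showed in this direction. As a percentage of the miR-378a-3p count of the same library, miR-378c was at 1.19%, 1.16% and 0.574% in EV_soft and at 0.413%, 0.467% and 0.275% in EV_stiff. The mean was 0.973% ± 0.346 (SD, n = 3) in EV_soft and 0.385% ± 0.0990 (SD, n = 3) in EV_stiff (exact two-sided permutation p = 0.1, below which 3 libraries against 3 cannot go, and 0.15 after adjustment for 6 ratios). Replicate 3 of EV_soft lay nearer to the EV_stiff libraries than to its own group. At these read numbers the exact 95% interval of every EV_soft library, for instance 0.714% to 1.86% in replicate 1, overlapped that of every EV_stiff library.

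At the pooled ratio of the EV_soft libraries, 0.904%, 3373 reads of miR-378a-3p in EV_stiff would come with 30.5 reads of miR-378c, and 13 were counted. That expected number ignores the spread between EV_soft libraries, whose own ratios ran from 0.574% to 1.19%. In a fit that kept rows of low counts, the log2 fold change of miR-378c was -1.18 (standard error 0.65, 95% interval -2.46 to 0.10, edgeR adjusted p = 0.514). The interval includes 0 and also reaches -2.46, so this fit does not decide whether miR-378c changed.

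The hairpin name of miR-378c had a row of its own, with 13, 14 and 13 reads in EV_soft and 8, 2 and 5 in EV_stiff. Added to the mature name, it gave 2.00%, 2.17% and 1.11% of the miR-378a-3p count in EV_soft and 1.07%, 0.654% and 0.733% in EV_stiff. These ratios did not overlap, by a margin of 1.11% to 1.07%, while in CPM the sum did overlap, with 403 in replicate 3 of EV_soft and 433 in replicate 1 of EV_stiff (ratios, exact two-sided permutation p = 0.1, adjusted 0.15). The 2 names summed to 1 row passed the filter, at a log2 fold change of -0.88 (edgeR standard error 0.40 and adjusted p = 0.125), which was not a call. This sum was chosen after the counts were seen.

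The ratio of miR-378d to miR-378a-3p overlapped between the groups. Its reads numbered 7, 7 and 16 in EV_soft and 7, 5 and 5 in EV_stiff, highest in the deepest library. Against miR-378a-3p this was 0.533% ± 0.112 (SD, n = 3) in EV_soft and 0.501% ± 0.0668 (SD, n = 3) in EV_stiff, with overlap (exact two-sided permutation p = 0.7, adjusted 0.7). Over the 6 libraries the ratio of miR-378d ran from 0.438% to 0.657%, while the highest ratio of miR-378c was 4.32 times its lowest. The interval of a single library was wide, for instance 0.176% to 0.905% in replicate 1 of EV_soft.

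miR-378i, whose single change stands just after the seed, was near the limit of detection. It had 2, 1 and 1 reads in EV_soft and 2, 3 and 2 in EV_stiff, and no library exceeded 3 counts. Its ratio to miR-378a-3p was 0.0795% ± 0.0425 (SD, n = 3) in EV_soft and 0.210% ± 0.0618 (SD, n = 3) in EV_stiff, without overlap and in the opposite direction to miR-378c (exact two-sided permutation p = 0.1, adjusted 0.15). With so few reads this order carries little weight. A single read more in replicate 1 of EV_soft would have removed the gap, since 2 reads gave 0.125% there and the lowest EV_stiff value was 0.165%.

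**Figure D5:**
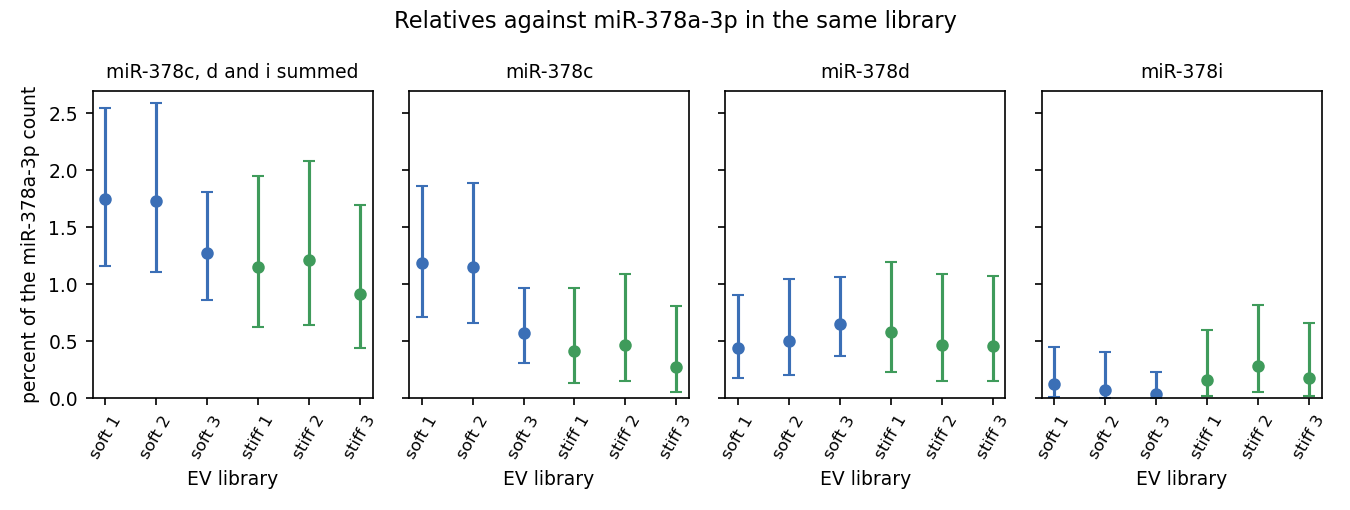
Reads of miR-378c, miR-378d and miR-378i, summed and alone, as a percentage of the miR-378a-3p reads of the same library, with exact 95% intervals, in EV_soft (blue) and EV_stiff (green) libraries. The points of miR-378c lie between 0.574% and 1.19% in EV_soft and between 0.275% and 0.467% in EV_stiff, those of miR-378d overlap, and those of miR-378i lie below 0.3% throughout.

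Taken as 1 sum, the 3 relatives were at 1.59% ± 0.272 (SD, n = 3) of miR-378a-3p in EV_soft and 1.10% ± 0.158 (SD, n = 3) in EV_stiff, without overlap (exact two-sided permutation p = 0.1, adjusted 0.15). The lowest EV_soft value was 1.27% and the highest EV_stiff value 1.21%. In CPM the sum did overlap, with 463 in replicate 3 of EV_soft and 467 in replicate 2 of EV_stiff. The ratio of the sum differed by -0.491 percentage points, EV_stiff minus EV_soft. Alone, miR-378c differed by -0.588, miR-378d by -0.0324 and miR-378i by 0.130, so the lower sum came from miR-378c and not from all 3. Read lengths and the division of reads between names were not analysed here, and their part in these ratios was not tested.

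The remaining relatives gave a mixed picture. miR-378e had 5, 4 and 14 reads in EV_soft and 4, 0 and 3 in EV_stiff. miR-378g, whose seed differs at 1 base, had 4, 10 and 6 reads in EV_soft and 10, 4 and 6 in EV_stiff, so that its raw count was the same, at 20, in both groups. Its CPM, which allow for the deeper EV_soft libraries, were 141 ± 91.1 (SD, n = 3) in EV_soft and 231 ± 95.5 (SD, n = 3) in EV_stiff. miR-378f had between 1 and 7 reads, miR-378h between 0 and 2, and miR-378b had 1 read in all. The CPM of each of these 5 overlapped between the groups. With the hairpin name included, all relatives summed to 3.41% ± 0.516 (SD, n = 3) of the miR-378a-3p count in EV_soft and 2.74% ± 0.496 (SD, n = 3) in EV_stiff, with overlap (exact two-sided permutation p = 0.2, adjusted 0.24). As 1 row their log2 fold change was -0.14 (edgeR standard error 0.25 and adjusted p = 0.715).

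miR-378a-3p was set beside other miRNAs known for roles in metabolism, a list of 20 of which 8 passed the filter. Of these 8, 1 was called, with 18.1% of all tested miRNAs called in either direction. It was miR-122-5p, a liver miRNA that regulates cholesterol and fatty acid metabolism. It went from 3378 ± 843 CPM (SD, n = 3) to 6857 ± 571 CPM (SD, n = 3), a log2 fold change of 1.03 (edgeR standard error 0.18 and adjusted p = 0.00295). Below the fold threshold, miR-148a-3p, a regulator of cholesterol uptake, had a log2 fold change of 0.50 (adjusted p = 0.00295), and miR-27b-3p, a regulator of lipid genes, -0.37 (adjusted p = 0.0308, both by edgeR). The hypoxia miRNA miR-210-3p, which acts on mitochondrial iron-sulfur cluster assembly, was at -0.22 (adjusted p = 0.632). The median log2 fold change of the 8 was -0.20, against -0.04 for all miRNAs tested. The values of these miRNAs thus lay on both sides of 0.

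By the Pearson correlation of log2 CPM over the 6 libraries, the miRNAs most like miR-378a-3p were miR-125a-3p (0.99), miR-423-5p (0.97) and miR-1246 (0.96). The least like were miR-186-5p (-0.94) and miR-146a-5p (-0.91), an inhibitor of inflammatory signaling. These values are descriptions without a test, since the 6 points fall into 2 groups and share their normalization. The sizes of change behind them differ widely, with a log2 fold change of 0.16 for miR-378a-3p, 1.18 for miR-423-5p and 0.40 for miR-125a-3p.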

How the data were processed

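The authors deposited raw read counts per miRNA name for 6 libraries, made by counting reads over RefSeq features, with exceRpt for quality control. The submitters' processing notes name hg38. The aligner, the mismatches allowed and the rule for reads that match several names are not given in the sources used here, so the counts of near-identical names are uncertain. Of the 471 rows, 8 carried joint names, and none of these was a miR-378 row. Groups and replicate numbers came from the labels.

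The main test used edgeR 4.0.16 in R 4.3.3 (filterByExpr, which kept 105 of 471 rows, TMM, glmQLFit, glmQLFTest, Benjamini-Hochberg adjustment), with limma 3.58.1 and DESeq2 1.42.0 as alternatives. The standard error is the log2 fold change divided by the square root of F. Log2 CPM used a prior count of 2. Ratios and shares used raw counts, exact permutation tests and Clopper-Pearson 95% intervals (scipy 1.17.1). The fit was also run on simulated counts with and without added changes, all far larger than that of miR-378a-3p. That run does not bear on so small a change or on rows of few reads.

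The members and lists were chosen with earlier results of these data known. Named were the members, the other miR-378 rows, miRNAs with the same seed, the 3 most and 2 least like miR-378a-3p, its neighbors in mean CPM, and miRNAs of metabolism. The planned test of the ratio of the 2 miR-378a arms was not made, since 5 libraries had 0 reads of miR-378a-5p. No pair of same-numbered libraries was linked by the labels. Other measurements of the study were not used here.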

Additional observations from a re-analysis of the deposited data

How the results depend on the processing

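The log2 fold change of miR-378a-3p was positive and not called in 18 of 19 alternatives, between 0.08 and 0.22 with adjusted p from 0.0609 (upper quartile factors) to 0.722 (no filter), and that of the summed family was positive in 18 of 19, between 0.08 and 0.21. Leaving out 1 library gave 0.13 to 0.19 for both. With library sizes set equal they were -0.68 and -0.69 (adjusted p = 0.0356 and 0.0343), all miR-378 rows summed gave -0.69, and 57 miRNAs were called, all lower, in place of 19. This scaling by construction keeps the difference in library totals. The other alternatives called 15 to 27 miRNAs, and leaving out 1 library 13 to 19. The split of 11 higher and 8 lower calls became 8 and 11 with library size only.

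The relatives' percentage of miR-378a-3p, EV_stiff minus EV_soft, was -0.491 percentage points, from -0.648 to -0.401 without 1 library and -0.471 in thinned libraries. Alone, miR-378i gave 0.130, the opposite direction. That of miR-378c was -0.588, from -0.788 to -0.480 without 1 library. The family's share differed by 0.207 percentage points, from 0.123 to 0.267 without 1 library, 0.303 with the most abundant miRNA left out and 0.406 over TMM effective library sizes, the last 2 without overlap (exact permutation p = 0.1, the smallest possible). The log2 fold changes of miR-378c, miR-378d and miR-378i as single rows were read only from the fit without a filter. They were not looked up in the other alternatives.

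With the replicate number as a block, the log2 fold change was 0.16 for miR-378a-3p (adjusted p = 0.173) and 0.16 for the summed family (adjusted p = 0.188), and 16 miRNAs were called. Deviations from the group means correlated at -0.13, 0.13 and -0.03 in the 3 same-numbered pairs. Pairs of unlike number ranged from -0.13 to 0.20. With 3 libraries per group these values cannot decide whether same-numbered samples shared a culture repeat, which the labels do not say.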
